A study of Mus musculus with 4 samples.

Results

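The 10 genes described here encode proteins that neutrophils store in granules or in abundance in the cytosol, and were taken as a listed set from the 32285 genes counted in 4 droplet scRNA-seq libraries. 4 of them are the primary, or azurophil, granule genes. *Mpo* encodes myeloperoxidase, which makes hypochlorous acid, and *Elane*, *Prtn3*, and *Ctsg* encode the serine proteases neutrophil elastase, proteinase 3, and cathepsin G. The other 6 are called later granule genes here. *Ngp* encodes neutrophilic granule protein, *Camp* the precursor of the cathelicidin antimicrobial peptide, *Ltf* the iron-binding protein lactoferrin, and *Lcn2* lipocalin 2, which captures bacterial siderophores. *S100a8* and *S100a9* encode the subunits of calprotectin, a calcium- and zinc-binding complex that lies in the cytosol rather than in a granule.

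Granule proteins are sorted into granules mainly by the time at which they are made. The primary granule proteins are synthesized while the cell is a granulocyte–monocyte progenitor (GMP) or promyelocyte, and monocyte progenitors make some of them too. Synthesis then stops, and the proteins of the specific granules follow at the myelocyte and metamyelocyte stages. The transcripts of the primary and later granule genes therefore separate early from late steps of neutrophil production.

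The libraries held cells of bone marrow and spleen, 1 library each from control mice (CBM and CS) and from tumor-bearing mice (TBM and TS), from C57BL/6J mice aged 8 to 16 weeks that the methods give as female. Tumor-bearing mice carried PyMT-B6, a transplanted tumor line of a breast cancer model, and control mice had no tumor. In all 4 groups Lin+ cells were depleted, and sorted c-Kit+ hematopoietic and CD45- stromal populations were mixed at equal ratios, so that the share of a cell class in a library is set in part by the sort. The number of mice behind each library is not given in the sources used here, and with 1 library a group no difference could be tested against replicates.

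Levels are given as counts per 1000000 UMIs of the cells summed (CPM). They come from 16261 barcodes with at least 1000 genes and at most 10% mitochondrial UMIs, 3497 of CBM and 4340 of TBM, with 3236 of CS and 5188 of TS, out of libraries of 101811035, 135207987, 145301019, and 176094297 UMIs. Between 2 and 9 barcodes were shared by any pair of libraries. Cells were grouped into classes from marker genes, with the 10 members and 20 other granule genes left out of the clustering, and the classes are named "-like" for that reason. The bracketed values are 95% intervals of counting error only, exact Poisson for a level, exact binomial for a share, and exact conditional binomial for a ratio. For a count of 0 no such interval is given, and the limit stated is 3 counts of the total. The level in free RNA, that is in barcodes with at most 100 UMIs, is given as the background.

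The primary granule genes lie on chromosomes 10, 11, and 14 of the mouse genome. In GRCm38, *Prtn3* lies at chr10:79874476-79883174 and *Elane* at chr10:79886247-79888215, on the plus strand and 3072 bases apart, *Mpo* at chr11:87793581-87804413 on the plus strand, and *Ctsg* at chr14:56099881-56102574 on the minus strand. *Prtn3* overlaps *Plppr3*, and *Mpo* overlaps *Gm11505*, each on the other strand. *Ngp*, *Camp*, and *Ltf* lie on chromosome 9, at chr9:110419747-110423012 (plus), chr9:109847379-109849617 (minus), and chr9:111019271-111042767 (plus). *S100a8*, at chr3:90668978-90670035 (plus), and *S100a9*, at chr3:90692632-90695721 (minus), are 22596 bases apart, and *Lcn2* is at chr2:32384633-32388252 (minus).

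The 250 bases before the RefSeq start site are shown for the 4 primary genes, whose levels were highest in the same class, and for *Ngp* and *Lcn2*, as later genes with a match to the last of the motifs below, which *Camp* and *S100a8* lacked. Capitals mark AGGAAGT, an ETS-type motif, CAACGG, a MYB-type motif, and TTGCNNAA, a C/EBP-type motif, searched on both strands, with no overlap among the matches. The motifs were chosen after the sequences had been seen. The sequences are those of RefSeq in GRCm38.p6, 5′ to 3′ on the strand of the gene, at chr10:79879417-79879666, chr10:79886062-79886311, chr11:87793534-87793783, chr14:56102575-56102824, chr9:110419558-110419807, and chr2:32387740-32387989.
Prtn3: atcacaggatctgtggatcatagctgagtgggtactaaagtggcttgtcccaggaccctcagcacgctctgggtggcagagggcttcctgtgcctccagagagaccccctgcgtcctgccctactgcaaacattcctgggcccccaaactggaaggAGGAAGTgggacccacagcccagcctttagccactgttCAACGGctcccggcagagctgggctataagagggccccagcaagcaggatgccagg
Elane: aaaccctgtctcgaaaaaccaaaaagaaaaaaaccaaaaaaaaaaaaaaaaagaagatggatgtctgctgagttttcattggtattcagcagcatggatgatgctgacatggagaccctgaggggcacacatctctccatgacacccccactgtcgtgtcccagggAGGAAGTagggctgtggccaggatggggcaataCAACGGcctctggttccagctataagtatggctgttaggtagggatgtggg
Mpo: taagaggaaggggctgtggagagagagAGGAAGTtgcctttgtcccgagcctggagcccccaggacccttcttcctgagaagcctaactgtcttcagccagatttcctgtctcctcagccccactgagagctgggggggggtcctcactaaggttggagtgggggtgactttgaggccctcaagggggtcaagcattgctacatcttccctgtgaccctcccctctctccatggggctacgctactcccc
Ctsg: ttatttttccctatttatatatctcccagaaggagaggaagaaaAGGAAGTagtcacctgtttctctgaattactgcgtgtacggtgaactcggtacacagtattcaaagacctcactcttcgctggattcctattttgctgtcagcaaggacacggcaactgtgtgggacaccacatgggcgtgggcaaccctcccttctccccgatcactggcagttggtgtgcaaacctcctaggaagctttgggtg
Ngp: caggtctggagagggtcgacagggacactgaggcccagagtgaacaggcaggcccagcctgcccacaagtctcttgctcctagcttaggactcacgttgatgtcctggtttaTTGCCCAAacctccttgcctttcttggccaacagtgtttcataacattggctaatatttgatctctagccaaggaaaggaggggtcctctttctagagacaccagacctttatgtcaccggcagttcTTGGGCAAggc
Lcn2: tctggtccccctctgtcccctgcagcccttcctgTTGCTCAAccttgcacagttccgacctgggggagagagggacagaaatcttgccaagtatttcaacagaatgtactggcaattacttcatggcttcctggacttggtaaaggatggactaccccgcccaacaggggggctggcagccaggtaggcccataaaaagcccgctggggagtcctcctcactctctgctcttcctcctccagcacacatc

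AGGAAGT was present in all 4 primary windows and in 1 of 6 later windows, that of *S100a8*, beside 9.35% of the 32851 windows of 300 bases searched, which reach from 250 bases before to 50 after the start. In *Prtn3* and *Elane* it began 94 and 84 bases before the start and was followed by CAACGG at 56 and 51 bases, and in *Mpo* and *Ctsg* it lay farther out, at 223 and 206 bases. CAACGG was found in 5.12% of all windows. TTGCNNAA was in none of the 4 primary windows and in 4 of 6 later ones, those of *Ngp*, *Ltf*, *Lcn2*, and *S100a9*, beside 10.8% of all windows. Because the motifs were picked after these windows had been seen, the shares of all windows cannot test the counts among the members. These are matches of letters, and binding was not measured.

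GMP-like cells, named from *Ms4a3*, *Cebpa*, *Gfi1*, and other markers, held the highest level of the primary granule genes among the named classes of every library. The summed level of the 4 genes was 27046 CPM [26904, 27190] in CBM and 23952 in TBM, and 25667 in CS and 17643 in TS. All 4 library values lay within a range of less than 2-fold, whereas the number of GMP-like cells did not: there were 259 in CBM and 1061 in TBM, and 44 in CS and 341 in TS, or 7.41%, 24.4%, 1.36%, and 6.57% of the cells. The monocyte-like cells came next, with primary sums of 11299, 10823, 14801, and 11794 CPM. Lymphoid-primed-like cells were at 4523, 5525, 9196, and 7107 CPM, and in each library the intervals of these 3 classes did not overlap. HSPC-like cells, the hematopoietic stem and progenitor cells, were at 1343, 2068, 1441, and 2075 CPM.

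Part of the lower levels was shared with free RNA. Free RNA held 10028 CPM of the primary genes in CBM and 11676 in TBM, and 2327 in CS and 2652 in TS. Late erythroid-like cells, which should make none of these transcripts, had 1683, 1194, 133, and 193 CPM. The HSPC-like sum of CBM was below the late erythroid-like cells of the same library, while that of TS was above them. Megakaryocyte-like and early erythroid-like cells of CBM were lower, at 523 and 211 CPM, so the reading depends on the class compared. The genes also differed. Relative to late erythroid-like cells of CBM, its HSPC-like cells stood at 0.161-fold for *Elane*, 0.739-fold for *Mpo*, and 0.761-fold for *Ctsg*. *Prtn3* was the 1 gene above them, at 676 CPM in HSPC-like cells and 456 in late erythroid-like cells, 1.48-fold [1.37, 1.61] apart. The 4 genes thus did not keep the same proportion, and how much of the HSPC-like sum of CBM is background was not tested. In TBM the HSPC-like sum was 1.73-fold [1.66, 1.81] above the late erythroid-like cells. GMP-like cells stood 16.1-fold [15.4, 16.7] above late erythroid-like cells in CBM and 20.1-fold [19.2, 20.9] in TBM.

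**Figure D1:**
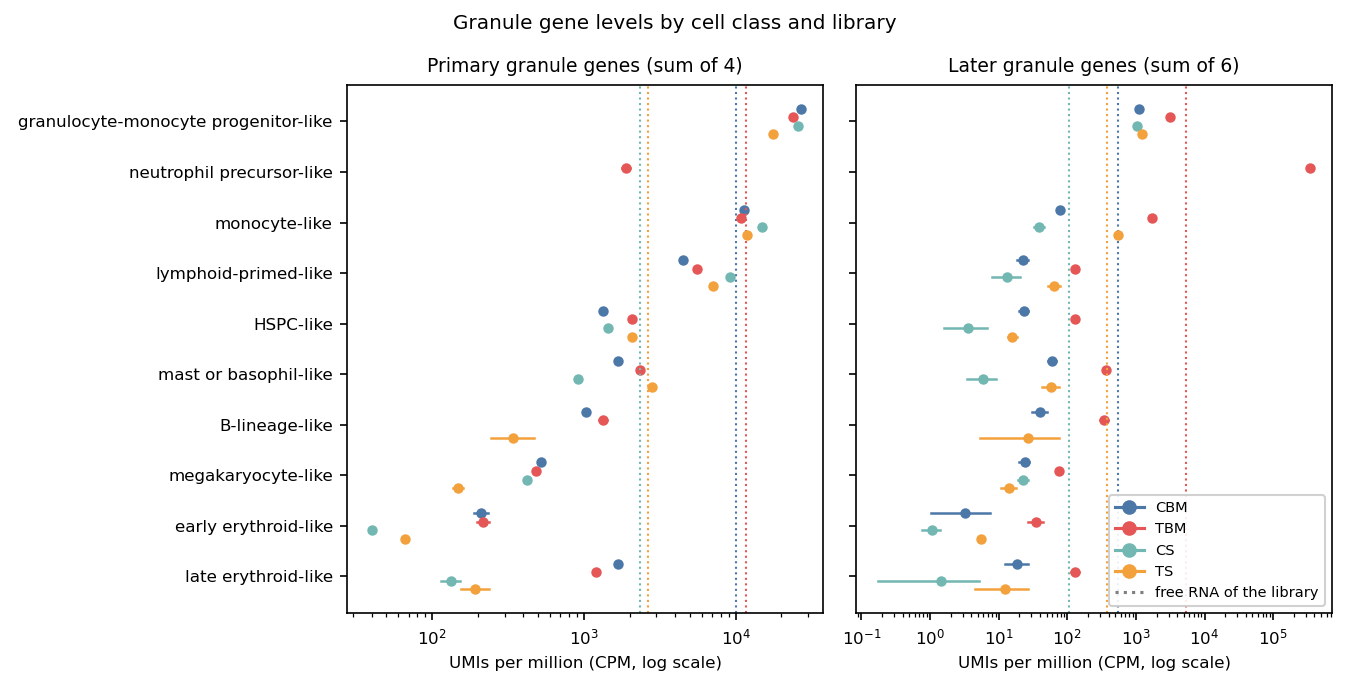
Levels of the 4 primary (left) and 6 later (right) granule genes, as summed CPM on a log axis, by cell class (rows) and library (colors). A point is drawn where a class has at least 20 cells. Unnamed, dendritic-like, and T or NK or innate lymphoid-like cells are not drawn, though they reached this number. The dendritic-like cells of TS held 712 CPM of the later genes. Bars are 95% counting intervals and dotted lines the free RNA of each library. GMP-like cells lead for the primary genes at 17643 to 27046 CPM, and the 53 neutrophil precursor-like cells of TBM lead for the later genes at 347483 CPM.

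The later granule genes peaked elsewhere. Neutrophil precursor-like cells were named from a list with *Retnlg*, *Cxcr2*, *Cebpe*, and *Ly6g*, at 11769, 548, 376, and 293 CPM in TBM, and other markers. The name is that of the list, and the stage of these cells was not tested. They were found mostly in TBM, with 53 cells there, 2 in CBM, and 4 in TS. CS held 0 of 3236, which allows a share of up to 0.0927%. The class holds the cells of 1 cluster with at least 5000 CPM of 13 neutrophil markers, a minimum set after seeing the data. The whole cluster held 53 cells of TBM, 30 of CBM, 6 of TS, and 3 of CS. The cells set aside had at most 1140.03 CPM of these markers in CBM, 1323 in CS, and 4601 in TS, the last near the minimum. The lowest cells kept had 6312 CPM in TBM and 9027 in TS. The cells kept were 1.22% [0.916, 1.59] of the TBM cells and 0.0572% [0.00693, 0.206] of the CBM cells. The 6 later genes made up 347483 CPM of the TBM cells of this class, of which *S100a9* was 158272 and *S100a8* 126370, followed by *Camp* at 23837, *Ngp* at 23300.5, *Lcn2* at 11981, and *Ltf* at 3723 CPM. The primary genes summed to 1893 CPM there, 184-fold less than the later ones, beside 1194 CPM in the late erythroid-like cells of the same library. Of these primary UMIs 69.3% lay in 6 of the 53 cells, and the cells had a median of 931 and a highest value of 21303 CPM. These 53 cells held 63.7% of all later granule UMIs in TBM cells. In the 2 CBM and 4 TS cells the later sums were 417484 and 233767 CPM. The TS cells also held 53031 CPM of 8 late erythroid markers, 2 of them at 0, beside 2842 in free RNA, and their part was not tested. No comparison between libraries was made in this class because of the cell numbers.

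Within these 53 TBM cells the later genes did not run in step. *S100a8* and *S100a9* were detected in 53 of 53 cells and *Lcn2* in 52, but *Ngp* in 43, *Camp* in 32, and *Ltf* in 27. When cells were divided by their own *Camp* level, 19 had at least 10000 CPM and 30 had under 1000 CPM, with 4 between. The median *Ngp* level was 34049 CPM in the 19 *Camp*-rich cells and 1110 CPM in the 30 *Camp*-poor ones. *Ltf* had a UMI in every *Camp*-rich cell, with a median of 7139 CPM, and was at 0 in 26 of the 30 *Camp*-poor cells. *S100a8*, in contrast, had medians of 139859 and 125284 CPM and *S100a9* of 189247 and 151706 CPM in these cells. The *Camp*-poor cells were also shallower, with a median of 5626 UMIs beside 19634, and the part of depth was not tested. The split uses a member and is a description of these cells.

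**Figure D2:**
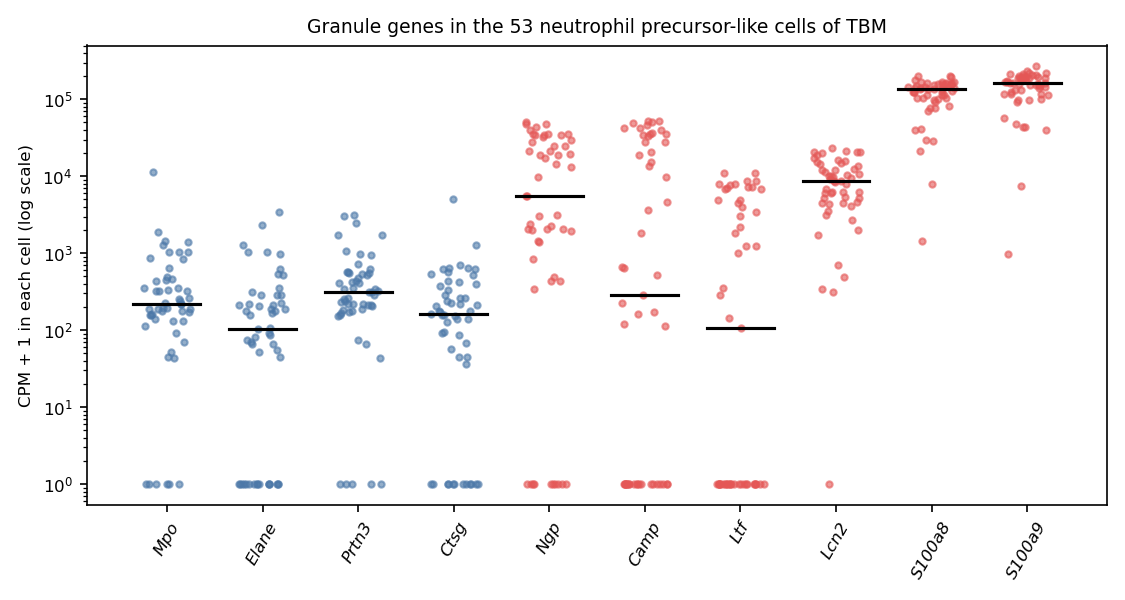
Level of each granule gene in each of the 53 neutrophil precursor-like cells of TBM, as CPM plus 1 on a log axis. Each point is a cell, black lines are medians, blue marks primary and red later genes, and cells without a UMI lie at 1. *Ngp*, *Camp*, and *Ltf* reach from 0 to high levels, with 10, 21, and 26 cells at 0, whereas *S100a8* and *S100a9* were present in all 53.

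The tumor-bearing libraries were then set beside their controls in GMP-like cells. *Elane* and *Mpo* were lower in both tissues and *Lcn2* was higher in both, while *Prtn3* and *Ctsg* differed little. *Elane* was at 7568 CPM in CBM and 4994 in TBM, and at 7132 CPM in CS and 3068 in TS. Both controls were above both tumor-bearing libraries, with log2 ratios of -0.60 [-0.62, -0.58] for TBM over CBM and -1.22 [-1.25, -1.19] for TS over CS. *Mpo* was at 6283 CPM in CBM and 4841 in TBM, and 5875 in CS and 3263 in TS, and its log2 ratios were -0.38 [-0.39, -0.36] and -0.85 [-0.88, -0.82]. The control tissues differed little in these genes, with *Elane* 1.06-fold and *Mpo* 1.07-fold lower in CS than in CBM.

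*Prtn3*, the most abundant of the 4 by UMIs in each library, was at 9028, 9296, 8550.2, and 7816 CPM in CBM, TBM, CS, and TS. Its log2 ratios of 0.042 and -0.13 were small, and their direction changed with how the cells were chosen. *Ctsg* was at 4167 CPM in CBM and 4820.4 in TBM, and 4110.3 in CS and 3496.5 in TS, giving log2 ratios of 0.21 and -0.23. It was thus 1.16-fold higher in TBM and 1.18-fold lower in TS than in the control.

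The GMP-like class was made of 2 clusters, both led by *Ms4a3*, and the larger held 133 of its 259 cells in CBM and 634 of 1061 in TBM, and 42 of 44 in CS and 337 of 341 in TS. The smaller cluster was shallow, with a median of 4633 UMIs beside 35484. In it, the log2 ratios of TBM over CBM were -0.62 for *Elane*, -0.44 for *Mpo*, and 2.87 for *Lcn2*. Within the larger cluster alone the log2 ratios were -0.70 and -1.24 for *Elane*, -0.40 and -0.88 for *Mpo*, and 3.07 and 2.99 for *Lcn2*. The 10 markers that name the class summed to 3693 CPM in CBM and 3668 in TBM, and to 3861 in CS and 3170 in TS. *Clec12a* was at 553 CPM in CS and 247 in TS, *Nkg7* at 815 and 484, and *Hk3* at 103 and 50.3. Of the list, only *Ms4a3* and *Cebpa* were higher in TS than in CS. The part of these markers in the granule values was not tested. Markers of other cells moved too in the GMP-like class. The 12 monocyte markers summed to 1714 CPM in CBM and 1084 in TBM, and to 1397 in CS and 516 in TS, with 2 of them at 0 in CS and none at 0 elsewhere. The 9 early erythroid markers, none of them at 0, summed to 278 CPM in CS and 481 in TS. The 8 late erythroid markers summed to 78.1 CPM in CBM and 213 in TBM but to 68.9 in CS and 33.0 in TS, and the 9 megakaryocyte markers to 16.4 and 38.7 but to 48.2 and 16.3. The 9 B-lineage markers summed to 115 CPM in CBM and 46.3 in TBM. Eosinophil markers moved as well, at 39.9 CPM in CS and 1.62 in TS, and macrophage markers, at 85.0 and 22.8. Free RNA held more than these sums of the erythroid, megakaryocyte, and B-lineage markers. For the late erythroid markers it held 9693 CPM in CBM and 11658 in TBM. It held 2708 and 1829 CPM of the monocyte markers in CBM and TBM, but 574 in CS and 181 in TS, below the GMP-like sums. The part of these cells, or of free RNA, in the granule values was not tested.

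The make-up of the primary transcripts shifted accordingly. *Prtn3* was 33.4% [33.1, 33.6] of the primary granule UMIs in CBM GMP-like cells and 33.3% [32.9, 33.7] in CS, which overlap, and 38.8% [38.7, 38.9] in TBM and 44.3% [44.1, 44.5] in TS. *Elane* went the other way, with 28.0% in CBM, 27.8% in CS, 20.9% in TBM, and 17.4% in TS. This quantity needs no scaling to all UMIs, and both tumor-bearing libraries lay on the same side of both controls. In free RNA, *Elane* was 17.4% of the primary UMIs in CBM and 13.7% in TBM, and 20.9% in CS and 12.3% in TS.

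**Figure D3:**
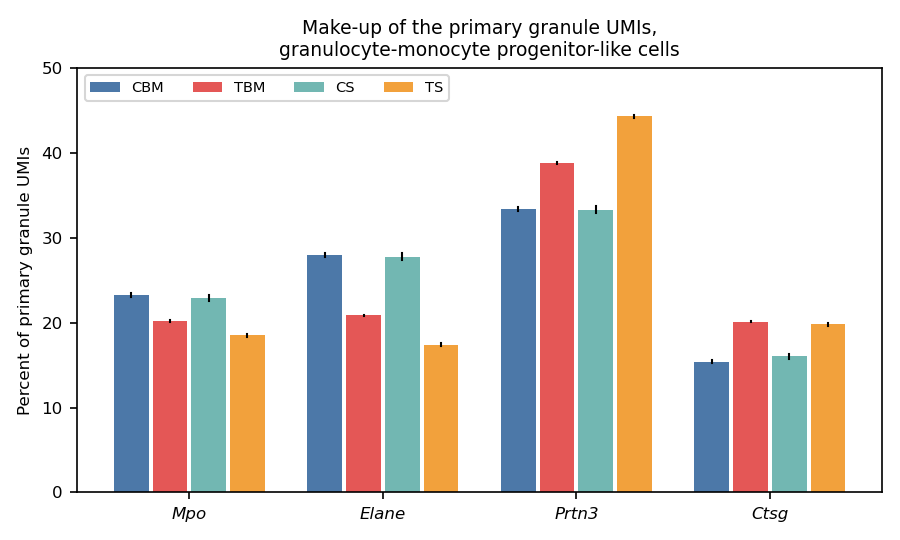
Percent of the primary granule UMIs of GMP-like cells that came from each of the 4 genes, by library (colors), with 95% binomial intervals of counting error as black lines. *Elane* is 28.0% and 27.8% in the control libraries and 20.9% and 17.4% in the tumor-bearing ones, and *Prtn3* shows the opposite order.

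Among the later granule genes, *Lcn2* showed the change common to both tissues. It was at 21.5 CPM [17.7, 25.9] in CBM but 186 [181, 192] in TBM, and at 19.7 [13.9, 27.0] in CS but 158 [151, 165] in TS. The control values overlapped, and the tumor-bearing values were 8.66-fold [7.16, 10.6] and 8.01-fold [5.81, 11.4] higher. Free RNA moved with it, at 12.5 CPM of *Lcn2* in CBM and 180.4 in TBM, 14.5-fold apart, and at 2.96 in CS and 26.1 in TS, 8.80-fold apart. The TBM level of free RNA was thus near that of the GMP-like cells, while late erythroid-like cells of TBM were at 11.1 CPM. *Lcn2* was spread over many cells rather than carried by a few. It had a UMI in 329 of 341 GMP-like cells of TS and in 798 of 1061 of TBM, beside 71 of 259 in CBM and 25 of 44 in CS. Cells with at least 2000 UMIs were then thinned to 2000, which kept 257 cells of CBM, 1055 of TBM, and all of CS and TS. The shares were 5.45% in CBM, 26.9% in TBM, 0 of 44 cells in CS, which allows up to 6.82%, and 25.8% in TS. Late erythroid-like cells, thinned alike, had *Lcn2* in 1.52% of cells in TBM and in none of 99, 62, and 41 cells of CBM, CS, and TS. Median depths of GMP-like cells were 21148, 29115, 43152.5, and 34578 UMIs in CBM, TBM, CS, and TS, and those of late erythroid-like cells 12340, 11499.5, 17730, and 11120.

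*S100a8* and *S100a9* were higher in TBM than in CBM, with a size that depended on the processing, and in TS their ratio to the control depended on how the cells were chosen. *S100a8* was at 876, 1721, 681, and 722 CPM in GMP-like cells of CBM, TBM, CS, and TS, with log2 ratios of 0.97 [0.93, 1.02] in marrow and 0.085 [0.001, 0.17] in spleen. *S100a9* was at 199, 1042, 324, and 331 CPM, 5.24-fold [4.92, 5.58] higher in TBM than in CBM and 1.02-fold [0.938, 1.11] in TS over CS. These UMIs were concentrated in few cells: the 107 TBM cells with the most *S100a9* held 90.9% of it, and 5 of the 44 CS cells held 98.1%. Over the alternatives run, the log2 ratio of TBM over CBM ranged from 0.78 to 1.39 for *S100a8*, on both sides of 2-fold, and from 1.61 to 2.65 for *S100a9*, with both lowest values for means over cells. That of TS over CS ranged from 0.040 to 0.87 for *S100a8* and from -0.019 to 0.86 for *S100a9*, the highest with classes by marker scores per cell. In CS the value rests on a handful of cells, and without the cells of highest doublet score the log2 ratio of the later sum in spleen was 0.51 in place of 0.24.

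*Ngp* and *Camp* were low in GMP-like cells outside TBM, and *Ltf* was at or near 0 in all 4 libraries. *Ngp* was at 1.78, 50.5, 3.63, and 6.25 CPM in CBM, TBM, CS, and TS, and *Camp* at 4.54, 89.7, 3.11, and 4.06 CPM. For both genes the intervals of TS over CS included no difference, and over the alternatives run the log2 ratio ranged from 0.61 to 1.62 for *Ngp* and from 0.091 to 2.03 for *Camp*, highest without the cells of highest doublet score. 107 of the 1061 TBM cells held 97.7% of the *Ngp* and 97.1% of the *Camp* UMIs, and 138 and 175 cells had any UMI of these genes. Free RNA of TBM held more than its GMP-like cells, at 209 CPM of *Ngp* and 413 of *Camp*. It was 48.6-fold and 31.0-fold above the free RNA of CBM. Late erythroid-like cells of TBM were at 2.23 and 10.6 CPM, and the part of free RNA in the GMP-like values was not tested. *Ltf* had 17 UMIs in TBM and 0 in each other library, where up to 3 UMIs, or 0.592 CPM in CBM, 1.55 in CS, and 0.243 in TS, cannot be told from 0.

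The later transcripts of TBM moved with the background of that library. Free RNA held 549 CPM of the later genes in CBM and 5413 in TBM, and 105 in CS and 376 in TS, so the TBM level was 9.86-fold that of CBM. In late erythroid-like cells of TBM the later sum was 129 CPM, beside 18.7 in CBM. GMP-like cells of TBM, at 3090.3 CPM, lay below the free RNA of their library but 24.0-fold [21.1, 27.4] above its late erythroid-like cells, beside 59.0-fold [40.5, 89.6] in CBM. After 10% of each cell's UMIs had been subtracted in the profile of free RNA, the log2 ratio of the later sum for TBM over CBM was 1.28 in place of 1.49. The 13 measured neutrophil precursor markers summed to 538 CPM in CBM GMP-like cells and 838 in TBM, and to 633 in CS and 617 in TS, with 4, 1, 5, and 4 of them at 0, and their part in the later transcripts was not tested.

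**Figure D4:**
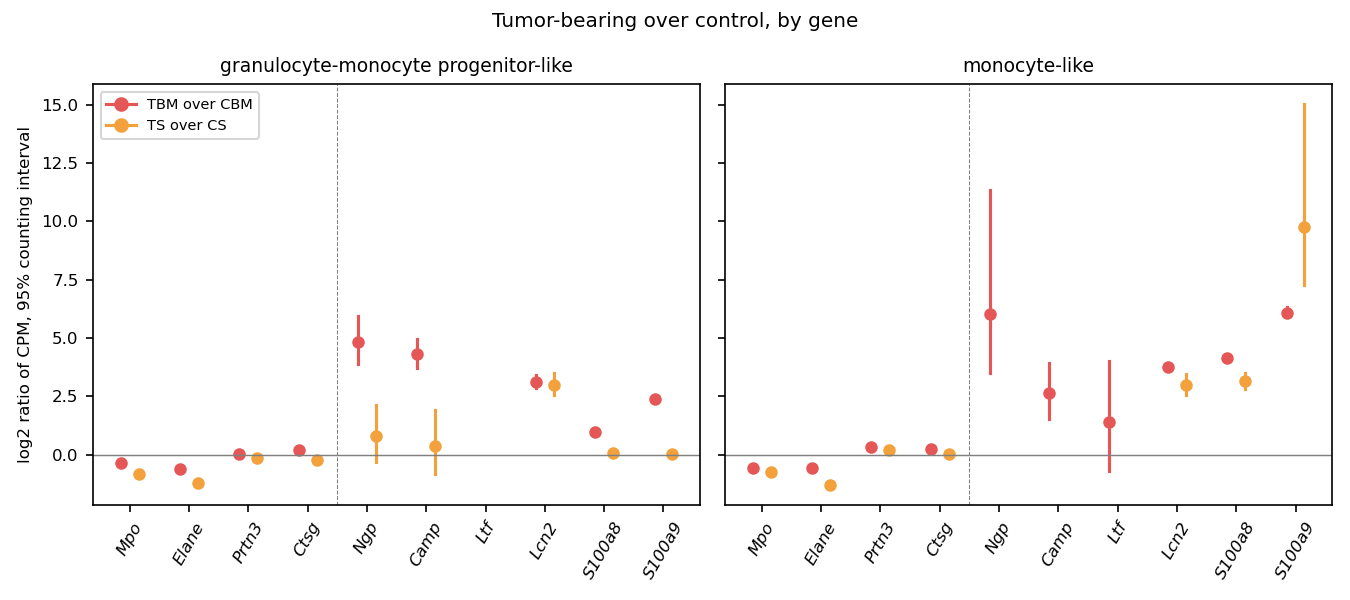
Log2 ratio of tumor-bearing over control level for each granule gene in GMP-like (left) and monocyte-like (right) cells, TBM over CBM in red and TS over CS in orange, with 95% counting intervals. Genes left of the dashed line are primary, and a ratio with 0 UMIs in either library is not drawn. *Mpo* and *Elane* lie below 0 and *Lcn2* near or above 3 in both tissues and both classes.

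These differences were read against all genes with a mean of at least 10 CPM in the pair of libraries. In GMP-like cells 0.646% of 7280 genes were at least 2-fold higher in TBM than in CBM and 0.371% at least 2-fold lower. Of the members, 5 of the 6 later genes passed this minimum and 4 of them, *Ngp*, *Camp*, *Lcn2*, and *S100a9*, were at least 2-fold higher, while 0 of the 4 primary genes were past 2-fold in either direction. *Ngp* and *Camp* passed the minimum only through TBM and could only count as higher. In spleen, 1.43% of 7405 genes were at least 2-fold higher in TS and 1.82% at least 2-fold lower, with *Lcn2* higher among the 3 later genes that passed and *Elane* lower among the 4 primary ones. The median log2 ratio of the 4 primary genes was -0.17 in marrow and -0.54 in spleen, beside 0.050 and 0.095 over all genes. Of the 3 later genes that passed in both tissues, *Lcn2*, *S100a8*, and *S100a9*, it was 2.39 in marrow and 0.085 in spleen.

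The other granule genes past 2-fold in GMP-like cells were *Chil3* in both tissues and *Fcnb* in spleen. Beside them, 0.646% of 7280 genes were higher and 0.371% lower in TBM, and 1.43% of 7405 higher and 1.82% lower in TS. The other azurophil list holds 7 genes, including *Prss57* and *Ctsc*, of which 6 passed the minimum in each tissue. 0 of these 6 were past 2-fold in either tissue. Of 8 other specific granule genes, 4 passed the minimum in each tissue. *Chil3*, a chitinase-like protein, was the 1 gene of these that was higher in TBM, at 108 CPM beside 1.58 in CBM, and it was also higher in TS, at 33.4 CPM beside 2.07 in CS. *Fcnb*, the lectin ficolin B, was lower in spleen, at 8.44 CPM in TS and 60.1 in CS, and since it reached the minimum only through CS it could only count as lower. In the gelatinase granule list 1 of 5 genes passed, and it was not past 2-fold. *Chil3* reached the minimum only through the tumor-bearing libraries and could only count as higher. The counts are small, and in TBM the free RNA also held 398 CPM of *Chil3*.

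In monocyte-like cells *Mpo* and *Elane* were lower in both tumor-bearing libraries, and *Prtn3* was higher in both. *Mpo* was at 3181 CPM in CBM and 2159 in TBM, and at 4217 in CS and 2531 in TS. *Elane* was at 2433 and 1641 CPM in marrow and at 3525 and 1450 CPM in spleen, where it was 2.43-fold lower. *Prtn3* was 1.25-fold [1.24, 1.26] higher in TBM than in CBM and 1.15-fold [1.12, 1.17] higher in TS than in CS, whereas *Ctsg* was at 1618 and 1939 CPM in marrow and 2053 and 2067 CPM in spleen. The numbers of cells were 805 in CBM and 513 in TBM, and 98 in CS and 53 in TS, in 2 clusters led by *Fn1* and by *F13a1*. The cluster led by *F13a1* held more primary transcripts, with 14763 CPM beside 5261 in CBM, and it made up 399 of the 805 cells in CBM and 259 of 513 in TBM, and 75 of 98 in CS and 50 of 53 in TS. Within it the log2 ratios were -0.66 and -1.34 for *Elane*, -0.52 and -0.80 for *Mpo*, 0.29 and 0.13 for *Prtn3*, and 3.18 and 2.76 for *Lcn2*. In the cluster led by *Fn1*, *Elane* differed little in marrow, at 1060 CPM in CBM and 1013 in TBM, and TS held 3 cells.

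Among the later genes, *Lcn2*, *S100a8*, and *S100a9* were higher in both tumor-bearing libraries in these cells. *Lcn2* was at 16.9, 228, 13.8, and 109 CPM in CBM, TBM, CS, and TS, 13.6-fold [12.2, 15.2] higher in TBM and 7.92-fold [5.85, 10.9] higher in TS. *S100a8* was at 50.9, 890, 24.5, and 217 CPM and *S100a9* at 8.71, 592, 0.255, and 217 CPM. In TBM, 52 of the 513 cells held 82.5% of the *S100a8* and 95.4% of the *S100a9* UMIs, and the median cell, at 53.6 and 19.8 CPM, was below the 56.3 and 47.9 CPM of the late erythroid-like cells. In TS, 6 of the 53 cells held 98.1% of the *S100a8* UMIs and 3 cells held all of the *S100a9* UMIs, so these values rest on few cells in both tissues. In marrow, 3 of the 3 later genes that reached 10 CPM were at least 2-fold higher, and 0 of the 4 primary genes were past 2-fold, beside 0.695% of 7626 genes higher and 0.787% lower. *S100a9* reached the minimum only through TBM and could only count as higher. Of the other azurophil genes 1 of the 6 that passed was past 2-fold, *Ctsc*, the protease that activates the granule serine proteases, at 352 CPM in TBM and 148 in CBM. Of the other specific granule genes 3 of the 5 that passed were at least 2-fold higher in TBM, *Chil3* at 923 CPM beside 56.5, *Hp*, which encodes haptoglobin, at 682 beside 294, and *Mmp8*, a neutrophil collagenase, at 37.2 beside 9.38, which passed only through TBM.

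In lymphoid-primed-like cells the summed level of *Elane* was lower and that of *Lcn2* higher in both tumor-bearing libraries. *Elane* was at 662 CPM in CBM and 446 in TBM and at 1682 in CS and 879 in TS, while *Ctsg* was at 717 CPM in CBM and 1328 in TBM and at 1642 in CS and 1452 in TS. The *Elane* sums were carried by few cells, with 35 of the 350 CBM cells holding 87.7% of its UMIs, and the median cell went the other way, at 54.2 CPM in CBM and 73.7 in TBM, and 185 in CS and 441 in TS. *Lcn2* was at 4.96, 56.2, 12.4, and 53.7 CPM, or 11.3-fold [7.79, 17.1] and 4.34-fold [2.58, 7.70] higher with tumor. In marrow 0.447% of 8050 genes were at least 2-fold higher, among them the 3 later members that passed, *Lcn2*, *S100a8*, and *S100a9*, and in spleen 2.0% of 7866 genes, with *Lcn2* the 1 later member that passed. In marrow *Lcn2* and *S100a9* passed only through TBM and could only count as higher. *S100a8* and *S100a9*, at 37.4 and 32.1 CPM in TBM, lay below the 56.3 and 47.9 CPM of its late erythroid-like cells. Against that class they were not told apart from background, and the part of background was not tested.

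In HSPC-like cells *Ctsg* was the primary gene that differed most between the libraries. It was at 194 CPM [185, 204] in CBM but 461 [447, 476] in TBM, and at 253 [234, 273] in CS but 508 [495, 522] in TS, 2.37-fold and 2.01-fold higher with tumor. These sums were carried by few cells. In marrow, 51 of 505 CBM cells held 69.5% of the *Ctsg* UMIs and 56 of 552 TBM cells 71.0%. In spleen, 12 of 118 CS cells held 77.1% and 66 of 659 TS cells 50.5%. The median cell was at 77.1, 163, 0, and 109 CPM in CBM, TBM, CS, and TS. The class joined 3 clusters that the spleen libraries filled unequally. Of the 118 CS and 659 TS cells, 49 and 26 were in the cluster led by *Hlf*, and 46 and 429 in one led by *Cxcl2*. In the third cluster, with 23 and 204 cells, *Ctsg* was 1.06-fold higher in TS, with an interval that included no difference, and in the *Cxcl2* cluster it was 2.32-fold higher. In marrow it was 1.94-fold higher in the *Hlf* cluster and 2.14-fold in the third. Beside it stood 0.634% of 8518 genes at least 2-fold higher in TBM and 0.669% of 8370 in TS. Late erythroid-like cells had 255 CPM of *Ctsg* in CBM, 270 in TBM, and 29.1 in TS. In CBM the HSPC-like level thus did not exceed that of the late erythroid-like cells. *S100a8* and *S100a9* were also past 2-fold in TBM, where *S100a9* passed the minimum only through TBM. Their sums with the other later genes, at 23.0 CPM in CBM and 128 in TBM, lay within the intervals of the late erythroid-like cells. In TBM the sum was above the 75.1 CPM of megakaryocyte-like and the 34.6 CPM of early erythroid-like cells. In CBM these classes were at 23.8 and 3.21 CPM, so the reading depends on the class compared. Whether these transcripts are background was not tested.

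After thinning to 2000 UMIs, 100% of the GMP-like cells with at least that depth had a UMI of a primary gene in every library. Their level makes this nearly certain, so that no cell could have later UMIs alone. Cells that also had a later UMI were 40.1% [34.0, 46.4] in CBM, with 72.9% [70.1, 75.6] in TBM, and 31.8% [18.6, 47.6] in CS with 46.0% [40.7, 51.5] in TS. The share with a later UMI in late erythroid-like cells was 3.03%, 26.5%, 1.61%, and 0 of 41 cells. Without thinning, 71.8%, 97.8%, 93.2%, and 97.7% of GMP-like cells had a later UMI. The TBM share stood above that of the 3 other libraries, whose intervals overlapped.

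Over the 40 sums of a class in a library with at least 20 cells, the primary and the later sums had a Pearson correlation of 0.615 on the log2(CPM + 1) scale. The points share libraries and their free RNA, and the value is a description. Of 6580 other genes, those most like the primary sum were *Ms4a3* (0.944), *Anxa3* (0.942), *Prss57* (0.914), *Lbp* (0.914), and *B4galt6* (0.906). Those most like the later sum were *Wfdc21* (0.896), *Lrg1* (0.882), *Dgat2* (0.823), *Trem3* (0.820), and *Chil3* (0.811). *Ms4a3*, *Trem3*, and *Lrg1* were markers used to name classes.

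*Ctsg* was at a higher level than *Mpo* and *Elane* in a cluster of mast or basophil-like cells led by *Prss34* and *Mcpt8*. *Ctsg* lies in the chymase locus, which also holds mast cell and basophil proteases such as *Mcpt8*. In this cluster it was at 1719 CPM in the 44 cells of CBM, 1588 in 229 cells of TBM, 2291 in 4 cells of CS, and 3397 in 21 cells of TS, above *Mpo* at 607, 531, 1950, and 880 CPM. *Elane* was at 94.9, 122, 682, and 109 CPM there. The *Ctsg* level of these cells in TS was above the 705 CPM of free RNA, while in CBM and TBM it was below the 2097 and 3051 CPM of free RNA and above the 255 and 270 CPM of late erythroid-like cells. *Lcn2* was at 92.2 CPM in CBM, 249 in TBM, and 163 in TS in the same cells.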

How the data were processed

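The deposited values are counts of UMIs per gene and barcode, made by the authors with Cell Ranger 4.0 on mm10 (per the labels), for all barcodes, with no cell calling, normalization, or removal of ambient RNA. The methods then describe SoupX, exclusion of barcodes with fewer than 350 genes, and SCT. None of these is in the files.

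Barcodes with at least 1000 genes and at most 10% mitochondrial UMIs were kept as cells (scanpy 1.11.5). Leiden clustering at a resolution of 1.2, on 20 neighbors in 50 components of Pearson residuals (theta 100) and without the 30 granule genes, gave 36 clusters. Of these, 27 were named where the markers of a list averaged a log2 level at least 0.5 above the other cells, at least 3 of them by 1 or more, and the leading 10 genes did not go against the name. Of 159 marker entries 158 were found. Cells of the neutrophil precursor-like cluster with under 5000 CPM of 13 neutrophil markers were set aside, a choice made after seeing the data, which removed 28 CBM, 3 CS, and 2 TS cells. 12 TBM and 2 TS cells lay within 2-fold of that minimum. No doublets were removed in the values reported, and Scrublet scores entered as an alternative.

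Member and class UMIs were summed per library and scaled to 1000000. Intervals used scipy 1.17.1 at 95%. Ratios and the 2-fold count were run on simulated Poisson counts. These lack the concentration of UMIs in few cells, so they cannot test the intervals of genes where it was seen. Genes named are the 10 members, 20 further granule genes in fixed lists, and the 5 genes most alike each sum in Pearson correlation, among genes with at least 50 CPM in 1 sum. Classes were rebuilt here and may differ from those of the study. The members and lists were chosen with earlier results of these data known. The sequences come from RefSeq tables and positions from the GRCm38 annotation.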

Additional observations from a re-analysis of the deposited data

Results flagged for a closer look

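In GMP-like, HSPC-like, monocyte-like, and lymphoid-primed-like cells, the classes searched, 5 results had opposite directions in marrow and spleen. Each group held 1 library, so that the difference between tissues was not tested. In GMP-like cells the log2 ratio of *Prtn3* was 0.042 for TBM over CBM and -0.13 for TS over CS, and that of *Ctsg* was 0.21 and -0.23. In HSPC-like cells it was 0.31 and -0.099 for *Mpo* and 0.71 and -0.37 for *Elane*, where in marrow *Elane* in both libraries and *Mpo* in CBM lay below the late erythroid-like cells, at 0.161-fold and 0.548-fold for *Elane* in CBM and TBM and 0.739-fold for *Mpo*. In lymphoid-primed-like cells it was 0.89 and -0.18 for *Ctsg*. Other classes were not searched, and *Elane* of mast or basophil-like cells also had opposite directions. It was at 167 CPM in CBM and 143 in TBM, and at 96.7 in CS and 156 in TS.

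A cluster of shallow cells left unnamed, with a median of 2806 UMIs and led by *Tsix*, *AY036118*, and *Gm26917*, held 36598 CPM of the primary granule genes in TBM, above the GMP-like cells of that library. It had 150 cells in TBM, and was at 12552 CPM in its 39 cells of CBM.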

How the results depend on the processing

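Values follow in the order primary sum TBM over CBM, later sum TBM over CBM, primary sum TS over CS, and later sum TS over CS, as log2 ratios in GMP-like cells, with -0.18, 1.49, -0.54, and 0.24 as reported. All kept their sign under the alternatives run. With at least 350 genes per barcode they were -0.092, 1.70, -0.44, and 0.53. With classes by marker scores per cell they were -0.0040, which is near no difference, and 1.81, -0.34, and 1.03. Without the top 5% of Scrublet scores they were -0.21, 1.41, -0.51, and 0.51, as means over cells -0.26, 1.18, -0.48, and 0.50, and in the larger cluster alone, added after seeing the data, -0.25, 1.41, -0.56, and 0.46. The marrow values were -0.19 and 1.58 with at most 5% mitochondrial UMIs and -0.19 and 1.28 with 10% free RNA subtracted. At resolution 0.6 the first 3 were -0.13, 1.62, and -0.60, and without mitochondrial, hemoglobin, and member genes in the total the primary sums were -0.19 and -0.56. Of 162 values for single members, 4 of *Prtn3* reversed: -0.077 for means over cells and -0.033 in the larger cluster for TBM over CBM, and 0.013 at 350 genes and 0.13 by marker scores for TS over CS. *S100a9* for TS over CS, at 0.029 with an interval that included 0, was -0.018 at resolution 0.6 and -0.019 with free RNA subtracted. At resolution 0.6 the smaller GMP-like cluster was led by *Igfbp7*, *Cldn5*, and *Fabp4*, the genes that lead the endothelial-like cluster of the reported classes. *Elane* ranged from -0.70 to -0.40 in marrow and -1.33 to -0.94 in spleen, and *Lcn2* from 2.99 to 3.29 and 2.79 to 3.19.

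The count of genes at least 2-fold higher in TBM GMP-like cells was 47, beside 3414 with no minimum level and 13 at 50 CPM, and of those lower 27, 1333, and 3. For TS the counts were 106, 3101, and 27 higher and 135, 1807, and 26 lower. No paired analysis was possible because each group holds 1 library. The 44 GMP-like cells of CS held 1930017 UMIs, the fewest of the 4 libraries, and the limit for *Ltf* at 0 UMIs was highest there, at 1.55 CPM.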
